A study of Mus musculus with 2 samples.

Results

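A set of 10 genes best known outside the intestine, 6 of them for plasma proteins made by liver, were followed through the endocrine cells of the mouse small intestine. They are Afp, Ambp, Serpina1a, Serpina1b, Serpina1d, Serpina1e, Cartpt, Ucn3, Shisa2 and Gsdma, which make 10 of the 32285 genes in the deposited lists. They were selected on their measured levels, since earlier readings of these same libraries placed them high in enterochromaffin cells or different between the libraries, and their counts were taken from the rows that bear their symbols. Their enrichment in enterochromaffin cells and their differences between the libraries are therefore descriptions and support nothing by themselves. The name of hepatic-type secreted genes covers 6 of the 10 well, since Cartpt and Ucn3 encode neuropeptides and neither Shisa2 nor Gsdma encodes a secreted protein.

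Single-cell RNA-Seq was performed on Tomato-positive epithelial cells sorted from the whole small intestine, with 1 library from WT mice and 1 from mice labelled NFKO. WT mice were Neurog3Cre; Rosa26tdtomato, and NFKO mice were Neurog3Cre-FoxO1 f/f; Rosa26tdtomato, both 4 to 6 weeks old. Each library pooled 4 to 5 mice, and pancreas attached to the gut was taken off first. Both groups carry the Cre and the reporter, so the sorted cells are those in which the Neurog3 driver was active at some time in their lineage, together with any cell in which the Cre acted outside it.

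Enterochromaffin cells are the serotonin cells of the gut epithelium. They make serotonin with the enzyme encoded by Tph1, store it in secretory granules, and in part also make tachykinins from Tac1, the gene of substance P. Single enterochromaffin cells differ along the crypt-villus axis, and Reg4 marks a fraction of them. Plasma proteins such as alpha-fetoprotein (Afp), alpha-1-microglobulin and bikunin (Ambp) and alpha-1-antitrypsin (the Serpina1 family) leave hepatocytes and fetal endoderm through the constitutive secretory route, whereas peptides such as CART (Cartpt) and urocortin 3 (Ucn3) are packed into granules.

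The Serpina1 paralogs are so alike that their sequences bear on every count given for them. Among the 5 intact paralogs of GENCODE M21, Serpina1c included, coding sequences were 96.3% to 96.7% identical in pairs without Serpina1a. Pairs with Serpina1a gave 91.4% to 93.3%. Its annotated coding sequence has 1308 bases against 1239, and its bases without a counterpart were counted as differences, which lowers these values. The last 500 bases of the transcripts, where 3′ libraries draw most reads, were 93.8% to 96.4% identical. All lie on the minus strand of chromosome 12 of GRCm38. Over the coding alignment 155 of 1308 columns differed between at least 1 pair, those with bases of Serpina1a alone included. A stretch of 60 columns in the last coding exon, dense in differences, held 18 of them and is shown as an example. Reads can also be placed by differences elsewhere. Capitals mark the columns in which the 5 paralogs are not all equal.
Serpina1a (chr12:103853757-103853816): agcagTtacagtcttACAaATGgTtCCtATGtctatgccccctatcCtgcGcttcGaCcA
Serpina1b (chr12:103728324-103728383): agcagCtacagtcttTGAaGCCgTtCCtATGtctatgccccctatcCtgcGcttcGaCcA
Serpina1c (chr12:103895094-103895153): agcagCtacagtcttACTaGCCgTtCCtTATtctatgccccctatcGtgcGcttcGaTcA
Serpina1d (chr12:103763762-103763821): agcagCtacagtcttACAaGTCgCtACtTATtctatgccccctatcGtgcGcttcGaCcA
Serpina1e (chr12:103947100-103947159): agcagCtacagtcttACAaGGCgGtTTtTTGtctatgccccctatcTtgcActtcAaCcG
Of all 91-base windows in the last 500 bases, 89.8% for Serpina1a, 96.6% for Serpina1b, 86.1% for Serpina1c, 92.9% for Serpina1d and 100% for Serpina1e occurred in no other paralog. A read without errors could thus be placed in most windows. Reads that match several genes are not counted by Cell Ranger, so each count omits an unknown part. The annotated span of Serpina1b (chr12:103728156-103830373) also contains all of Serpina1d (chr12:103763594-103773592) on the same strand, and reads there can be ambiguous between them. Values for single Serpina1 genes are uncertain for these reasons.

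The other members stand apart in the genome. Afp (ENSMUSG00000054932) lies at chr5:90490737-90508907 on the plus strand of GRCm38, Ambp at chr4:63143275-63154799 on the minus strand, Cartpt at chr13:99898489-99901091 and Ucn3 at chr13:3940688-3945349 on the minus strand, Shisa2 at chr14:59625308-59631660 and Gsdma at chr11:98664351-98677708 on the plus strand. RefSeq promoters of GRCm38.p6 were matched for 9 of the 10 members, and the 250 bases before the start were searched on both strands for 2 words. The HNF1 half-site GTTAAT, which reads on the other strand as ATTAAC, a word of the liver and gut factor HNF1, was found in 5 of the 9 (55.6%), against 6.43% of 32841 promoters. The 5 were Afp, at 105 bases before the start, Serpina1a at 21, Serpina1b at 26, Serpina1d at 16 and Serpina1e at 78, and the 4 Serpina1 promoters belong to near-identical paralogs, so they do not count as separate cases. The FoxO and forkhead core GTAAACA, which reads on the other strand as TGTTTAC, was found in 0 of the 9, against 3.17% of all promoters. These matches are a description of letters, not of binding. The promoters of Afp and Serpina1e show the word in its surroundings, with the half-site in capitals, and that of Ambp, a plasma protein gene without it, stands beside them.
Afp (chr5:90490594-90490713, plus strand): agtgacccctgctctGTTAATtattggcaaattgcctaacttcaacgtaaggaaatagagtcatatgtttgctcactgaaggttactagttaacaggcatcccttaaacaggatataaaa
Serpina1e (chr12:103956898-103957017, minus strand): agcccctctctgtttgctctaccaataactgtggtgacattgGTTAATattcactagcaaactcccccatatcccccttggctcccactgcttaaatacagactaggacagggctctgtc
Ambp (chr4:63154173-63154292, minus strand): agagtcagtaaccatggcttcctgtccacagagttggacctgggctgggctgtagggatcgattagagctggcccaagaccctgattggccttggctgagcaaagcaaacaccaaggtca
The Serpina1e and Ambp windows lie inside the annotated spans of those genes, which have starts further upstream in GENCODE. The same holds for the promoters searched for Serpina1b and Cartpt. Bases before those upstream starts were not searched.

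The filters left 3003 cells in WT and 5292 labelled NFKO, with 78424392 and 111522270 UMIs and medians of 16883 and 17035 UMIs per cell. A UMI stands for 1 captured transcript, and levels are sums over the cells named, expressed in CPM (UMIs of the gene in every 1000000). Every interval is a 95% interval for counting error only, and no value has a replicate. Foxo1 had 11.5 CPM (10.8 to 12.3) in WT and 12.4 (11.7 to 13.1) in the library labelled NFKO. The sources do not name the deleted exon and 3′ reads may lie outside it, so this level does not check the genotype. The study's paper reported reduced FoxO1 expression in sorted Tomato-positive cells of NFKO mice. The libraries also differed in sex: 2424 WT cells were typed male and 6 female by Y-linked genes and Xist, against 357 and 4357 in the library labelled NFKO. Genotype and sex cannot be told apart except in male-typed cells. The libraries shared 4 barcodes among kept cells.

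Clustering without the 10 members gave 1038 enteroendocrine-like WT cells and 2017 such cells labelled NFKO, of which 204 (19.7%) and 522 (25.9%) were enterochromaffin-like. These fell into 2 clusters. The cluster high in Tac1 held 172 and 258 cells, with 7 of 8 enterochromaffin markers raised over the remaining cells, and had 9904 and 7966 CPM of Tac1 and 2052 and 1738 CPM of Tph1. The cluster high in Reg4 held 32 and 264 cells, with all 8 markers raised, and had 3852 and 4927 CPM of Tph1, 1469 and 1190 CPM of Tac1, and 16958 and 12241 CPM of Reg4. The WT enterochromaffin-like cells were thus 15.7% Reg4-high and those of the library labelled NFKO 50.6%. This difference in mixture enters every value pooled over both clusters, so the members are also compared between the libraries within each. For the gene lists some values are given over both clusters together only. The remaining enteroendocrine-like clusters are named by their leading hormone or gene (Cck, Sct, Nts, Gcg, Sst, Gip or Neurog3 with Ghrl).

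Afp was the member most nearly restricted to enterochromaffin-like cells, with Cartpt. In the Reg4-high cluster Afp stood at 2723 CPM (2536 to 2920) in WT and 1890 CPM (1835 to 1945) in the library labelled NFKO. In the Tac1-high cluster it stood at 26.0 CPM in WT and 700 CPM in the library labelled NFKO. Outside the enterochromaffin-like clusters, enteroendocrine-like cells held 3 Afp UMIs in WT and 42 in cells labelled NFKO.

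Ambp, whose product is cut into alpha-1-microglobulin and the protease inhibitor bikunin, was not restricted in this way. It reached 712 CPM in WT and 1190 CPM in the library labelled NFKO in Reg4-high cells, but 869 CPM (13 cells) and 761 CPM in Cck-led cells. In WT the intervals of these leading clusters overlapped (618 to 816 against 744 to 1008), so that no order can be read, whereas in the library labelled NFKO the Reg4-high cluster led. Nts-led cells followed with 186 and 250 CPM. Tac1-high cells had 32.4 and 58.1 CPM, below the Nts-led cells in both libraries.

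The Serpina1 genes, which encode inhibitors of neutrophil elastase and related proteases, had different leading clusters. Serpina1e was highest in Reg4-high cells, with 517 CPM in WT and 931 CPM in the library labelled NFKO, before Nts-led cells with 78.7 and 363 CPM. Serpina1a was highest in Sst-led cells, with 117 and 611 CPM, against 13.9 and 129 CPM in Reg4-high cells. Serpina1b stood at 62.5 and 235 CPM in Reg4-high cells, at 188 and 543 CPM in Sst-led cells, and at 216 and 243 CPM in Cck-led cells. For Serpina1d the Neurog3-Ghrl-led cells, which carry endocrine progenitor markers, had the highest value with 67.1 and 86.4 CPM, beside 31.3 and 68.4 CPM in Reg4-high cells, with overlapping intervals. Serpina1b was also the member with most counts in goblet-like cells, at 43.4 and 85.4 CPM.

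Of the peptides, Cartpt, the precursor of CART, had 563 CPM in WT and 516 CPM in the library labelled NFKO in Reg4-high cells, and 19.6 and 6.79 CPM in Tac1-high cells. It had 0 UMIs in the other WT enteroendocrine-like cells and 15 in those of the library labelled NFKO. Ucn3, a ligand of the type 2 receptor for corticotropin-releasing factor, had 212 CPM (162 to 272) in WT Reg4-high cells and 39.5 CPM (32.0 to 48.3) in those of the library labelled NFKO. Its other levels lay lower in WT, at 22.6 CPM in Tac1-high and 22.4 in Gcg-led cells. In the library labelled NFKO the Reg4-high interval overlapped that of Tac1-high cells (31.0 CPM), which in turn overlapped that of Sct-led cells (29.5 CPM). Among these Tac1-high cells 1 cell held 55 of the 105 Ucn3 UMIs.

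Shisa2 encodes a membrane protein of the endoplasmic reticulum that holds back Wnt and FGF receptors, and Gsdma encodes a gasdermin, a pore-forming protein best known in skin and upper gut. Shisa2 had 667 and 606 CPM in Reg4-high cells, and in the library labelled NFKO the next clusters were Nts-led cells (79.2 CPM) and Tac1-high cells (66.7 CPM), whose intervals overlapped. Gsdma had 309 and 522 CPM in Reg4-high cells. Its next levels were in Sct-led cells in WT (89.4 CPM) and in Cck-led cells in the library labelled NFKO (157 CPM). Gsdma thus resembled Ambp in reaching the Cck-led, Nts-led and Sct-led clusters, while staying at 7.85 and 1.48 CPM in Tac1-high cells.

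**Figure D1:**
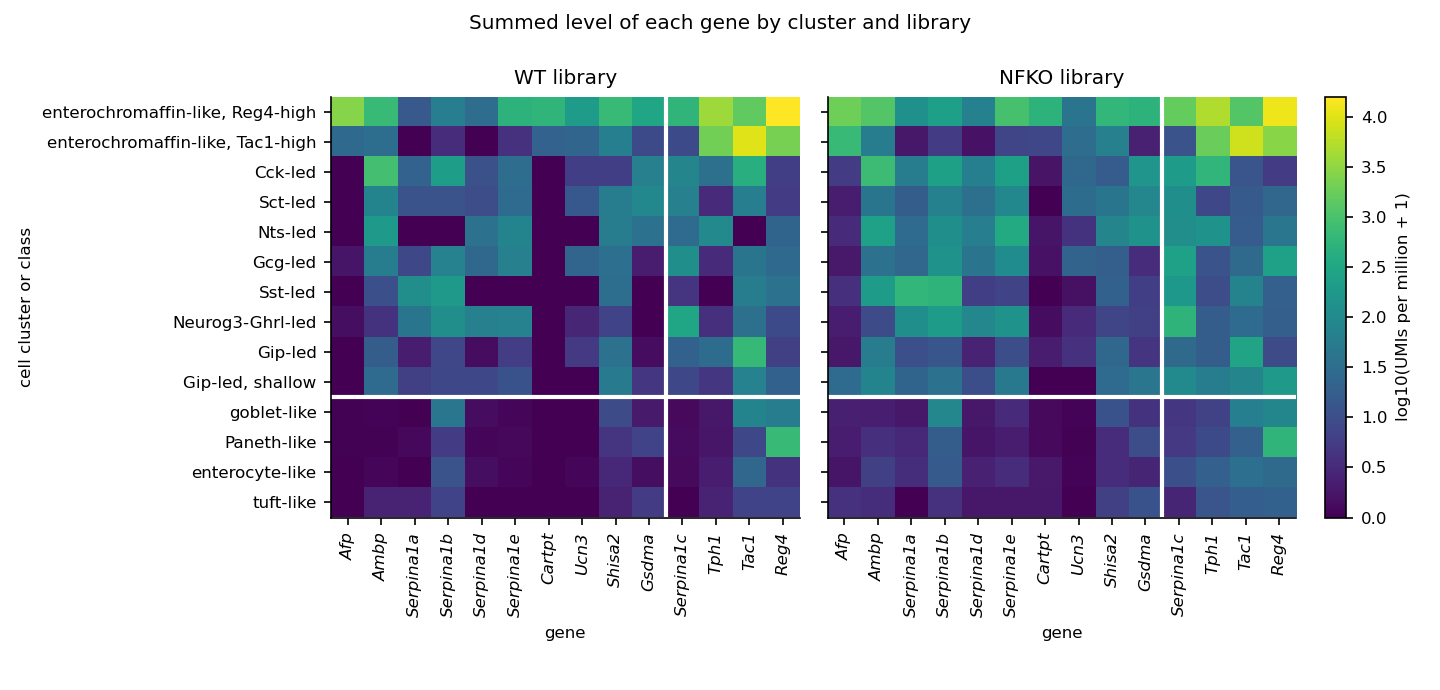
Summed level of each gene, as log10(CPM + 1), by cell cluster or class (rows) and gene (columns) in the WT and NFKO libraries; the vertical white line sets off genes that are not members and the horizontal one the non-endocrine classes. The Reg4-high row is bright for most members, Afp and Cartpt are dark below the enterochromaffin-like rows, and Serpina1a is brightest in the Sst-led row.

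Set against the other enteroendocrine-like cells together, 7 of the 10 members were at least 1.5-fold higher in enterochromaffin-like cells in WT, and 3 were lower. A ratio was counted as a difference when it lay at least 1.5-fold from 1, its interval excluded 1 and both sides together held at least 20 UMIs. By the same rule 9.43% of all genes counted were higher and 10.1% lower. In the library labelled NFKO 7 were higher and 1 lower, against 15.7% and 10.1% of genes. Since the members were chosen for this contrast, nothing is read from these shares. Afp had 1099.5 times the level in WT (837 against 3 UMIs) and 672 times in the library labelled NFKO, and Cartpt at least 265 times in WT, where the other cells had no UMI. The other members higher in both libraries were Ambp (2.35 and 4.82), Serpina1e (1.59 and 4.16), Ucn3 (5.21 and 4.09), Shisa2 (4.61 and 12.9) and Gsdma (6.37 and 7.75). The members that went the other way were Serpina1a, with ratios of 0.0985 and 0.610, and in WT alone by this rule Serpina1b (0.158) and Serpina1d (0.155), whose ratios in the library labelled NFKO were 0.717 and 0.775.

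The members differed widely in how many cells carried them. Per Reg4-high cell of the library labelled NFKO, Shisa2 was detected in 238 of 264 cells (90.2%), Gsdma in 231 (87.5%), Serpina1e in 224 (84.8%) and Ambp in 198. Serpina1b was detected in 150 cells (56.8%), Serpina1a in 136 (51.5%), Cartpt in 117 (44.3%), Afp in 90 (34.1%), Serpina1d in 79 (29.9%) and Ucn3 in 44 (16.7%). Among the 32 WT cells the shares were 96.9% for Shisa2, 84.4% for Gsdma, 71.9% for Serpina1e, 65.6% for Ambp, 53.1% for Cartpt and 34.4% for both Afp and Ucn3. Serpina1b was found in 8 of the 32, Serpina1a in 3 and Serpina1d in 1. Goblet-like cells serve as the reference for genes that non-endocrine cells should lack. Afp was detected in 0.119% of goblet-like cells in WT and 2.62% in cells labelled NFKO, at medians of 24234 and 22285 UMIs, against 8820 and 9284 in Reg4-high cells. Cartpt was detected in 0 of the 838 goblet-like cells in WT, which allows up to 0.439%, and in 0.512% in the library labelled NFKO.

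Afp reached very high values in single cells. The median Reg4-high cell had 0 CPM of Afp in both libraries, and the highest had 60595 CPM in WT and 63881 CPM in the library labelled NFKO. The 3 highest cells held 87.0% of all Afp UMIs of the cluster in WT, of 32 cells, and 55.9% in the library labelled NFKO, of 264 cells. Ambp, Shisa2, Gsdma and Serpina1e were spread more evenly, with cell medians of 517, 529, 243 and 237 CPM in WT and 569, 545, 514 and 710 CPM in the library labelled NFKO. For Shisa2 in the library labelled NFKO, 62 cells were needed to reach 50% of the UMIs, and the 3 highest held 4.35%. For Gsdma 66 cells were needed, with 3.71% in the 3 highest. The level of Afp in any group is thus set by a few cells, and its counting interval, which takes each UMI as independent, is narrower than its spread between cells.

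**Figure D2:**
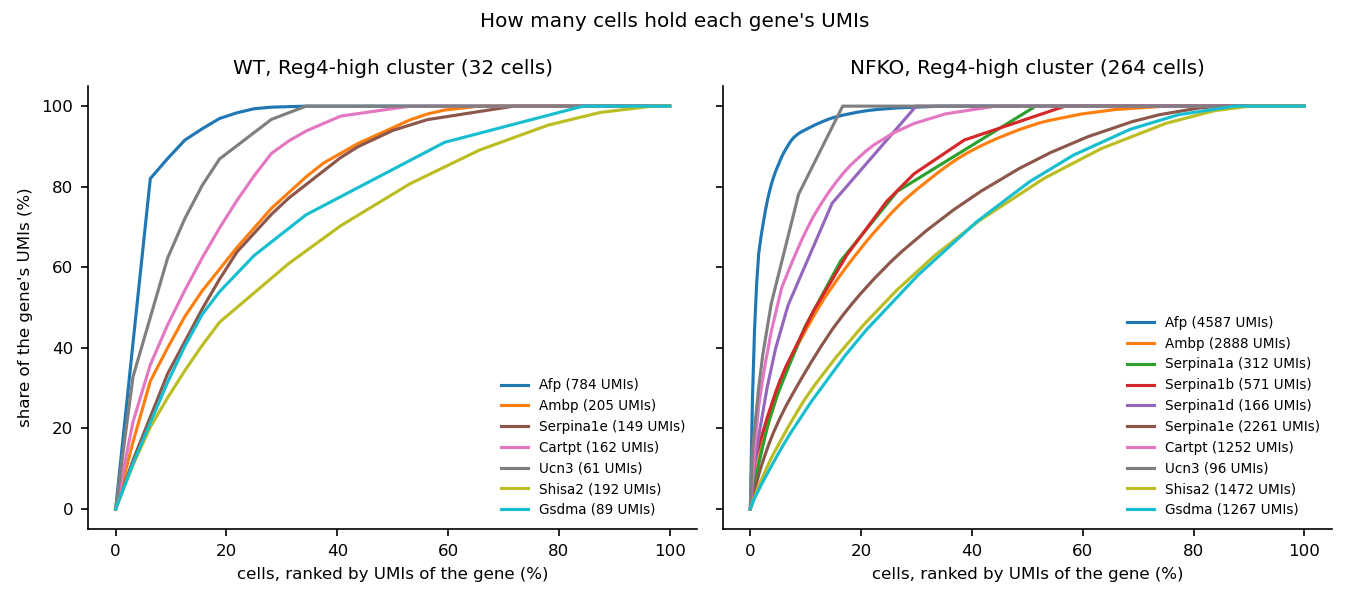
Cumulative share of a gene's UMIs (%, vertical axis) held by Reg4-high cells ranked from most to fewest UMIs (% of cells, horizontal axis), for members with at least 20 UMIs, in the WT library (32 cells) and the NFKO library (264 cells). The Afp curve rises almost at once, with 87.0% and 55.9% of UMIs in 3 cells, and the Shisa2 and Gsdma curves rise most slowly.

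Reg4-high cells carried more of nearly every member than Tac1-high cells did, in both libraries. In WT 8 of the 8 members with enough counts were higher and 0 lower, against 9.75% of all genes higher and 12.5% lower. Among cells labelled NFKO 9 of 10 were higher and 0 lower, against 18.3% and 22.4%. The median log2 ratio of the members was 4.76 in WT and 5.99 in cells labelled NFKO, beside medians over all genes of -0.17 and -0.10. As several members were chosen for high levels in part of the enterochromaffin cells, this too is a description. For Afp the ratio was 105 in WT but 2.70 in the library labelled NFKO, since Tac1-high cells of that library also held Afp. For Ambp it was 22.0 and 20.5, for Shisa2 10.4 and 9.09, and for Serpina1e 176 and 143. Gsdma was 39.4 times higher in WT and 354 times in the library labelled NFKO, and Cartpt 28.7 and 76.0 times. Ucn3 was 9.38 times higher in WT and 1.28 times in the library labelled NFKO, which did not reach 1.5-fold. The latter ratio rests on few cells, since 3 Tac1-high cells labelled NFKO held 73.3% of that cluster's Ucn3 UMIs, and 1 of them held 55 of 105. Tph1 itself was 1.88 and 2.83 times higher in Reg4-high cells, and Tac1 lower at ratios of 0.148 and 0.149.

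Between the libraries, enterochromaffin-like cells labelled NFKO had higher pooled levels of 9 of the 10 members and lower levels of 0, against 8.92% and 4.56% of the 11591 genes counted. The median log2 ratio of the members was 2.23 and that of all genes 0.06. Among the plasma protein genes the ratios were 3.32 (3.09 to 3.58) for Afp, 4.55 (4.02 to 5.17) for Ambp, 31.5 (12.2 to 116) for Serpina1a, 10.2 (6.72 to 16.2) for Serpina1b, 7.46 (3.84 to 16.6) for Serpina1d and 5.89 (5.00 to 6.98) for Serpina1e. Cartpt had a ratio of 2.52 (2.17 to 2.94), Shisa2 of 2.10 (1.87 to 2.38) and Gsdma of 4.84 (3.97 to 5.97). Ucn3 had a ratio of 0.751 (0.591 to 0.959), short of 1.5-fold. The Afp ratio was 10.9 without the 3 cells of each library with most of its UMIs and 1.55 as a ratio of mean per-cell levels, and that of Serpina1b was 18.3 without its 3 highest cells. Those 3 cells are a larger part of the 204 WT cells than of the 522 labelled NFKO, so the trim was unequal. An unequal trim of this kind can itself raise the ratio. When the WT proportions of both clusters were given to the library labelled NFKO, an alternative chosen after seeing the data, 6 members remained at least 1.5-fold higher (Afp, Ambp and the 4 Serpina1 members) and the median log2 ratio was 0.81. Cartpt then stood at 0.804, Shisa2 at 0.961, Gsdma at 1.46 and Ucn3 at 0.697.

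Within the Reg4-high cluster the members parted into groups. Higher in the library labelled NFKO were 6 of 10, against 5.58% of genes, and lower was 1, against 3.45%. The 6 were Ambp, at 1.67 (1.45 to 1.94), Serpina1a at 9.25 (3.58 to 34.2), Serpina1b at 3.76 (2.36 to 6.40), Serpina1d at 2.19 (1.13 to 4.87), Serpina1e at 1.80 (1.52 to 2.14) and Gsdma at 1.69 (1.36 to 2.12). Without the 3 highest cells of each library Serpina1b stood at 8.69. Ucn3 was lower, at 0.187 (0.134 to 0.262), and at 0.319 without its 3 highest cells. The ratio of Afp was 0.694 (0.643 to 0.750), short of the 1.5-fold limit, and without the 3 cells with most Afp UMIs in each library it was 2.25, while the ratio of mean per-cell levels was 0.342. Cartpt at 0.917 (0.778 to 1.09) and Shisa2 at 0.909 (0.782 to 1.06) had intervals that included 1. The cluster held 32 WT cells and 264 labelled NFKO, so leaving out 3 cells trims WT more, which can itself raise a ratio. The 9 WT UMIs of Serpina1d came from 1 cell.

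Within the Tac1-high cluster 2 of the 8 members counted were higher in the library labelled NFKO, against 5.21% of genes, and 2 were lower, against 5.00%. Afp was higher at 26.9 (20.5 to 36.0). It was detected in 15 of 172 WT cells and 32 of 258 cells of the library labelled NFKO, where the 3 highest held 77.0% of its UMIs, and without the 3 highest cells of each library the ratio was 16.3. Ambp was higher at 1.80 (1.35 to 2.41), and at 1.49 without its 3 highest cells, short of 1.5-fold. Cartpt was lower at 0.346 (0.198 to 0.592), but 3 WT cells held 92.5% of its UMIs, and without the 3 highest cells the ratio was 1.79. Gsdma was lower at 0.188 (0.0538 to 0.537), on 16 WT UMIs and 5 of the library labelled NFKO, and without the 3 highest cells of each too few UMIs were left for a call. Ucn3 at 1.37, Shisa2 at 1.04, Serpina1b at 1.80 and Serpina1e at 2.21 did not meet the rule, and Serpina1a and Serpina1d had too few UMIs.

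The difference reached beyond the enterochromaffin cells. In the other enteroendocrine-like cells 6 of 9 members were higher in the library labelled NFKO and 0 lower, against 4.85% and 7.66% of genes. These were Afp at 5.44 (1.74 to 27.4), Ambp at 2.22, Serpina1a at 5.09, Serpina1b at 2.24, Serpina1e at 2.26 and Gsdma at 3.98. The mix of clusters also differed here, with 13 Cck-led cells of 834 in WT and 70 of 1495 labelled NFKO. Within Cck-led cells, which held 1175 of the 2596 Ambp UMIs of the latter, the Ambp ratio was 0.876 (0.746 to 1.03), and it was 0.650 in Gcg-led and 0.540 in Sct-led cells. Serpina1d at 1.49, Ucn3 at 0.955 and Shisa2 at 0.749 did not meet the rule. Serpina1a stood at 117 CPM in WT Sst-led cells and 611 CPM in those labelled NFKO, and at 41.1 and 123 CPM in Neurog3-Ghrl-led cells. In goblet-like cells, Serpina1b was 1.97 times and Gsdma 3.08 times higher in the library labelled NFKO, and Shisa2 stood at 1.24. Afp had 42 UMIs there against 1 in WT and Ambp 40 against 2, while Tph1 had 179 against 16. For each Tph1 UMI there were 0.0625 Afp UMIs in WT and 0.235 in goblet-like cells of the library labelled NFKO, against 0.158 and 0.390 in enterochromaffin-like cells. Over all cells outside the enteroendocrine-like clusters Tph1 stood at 9.11 and 8.44 CPM, Afp at 0.224 and 1.66 CPM and Ambp at 0.613 and 2.36 CPM, and the part of free RNA in these counts was not tested.

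Male-typed cells allowed the libraries to be compared within 1 sex, with 162 WT and 36 enterochromaffin-like cells of the library labelled NFKO. Reg4-high cells were 24 of the 162 and 24 of the 36, so the cluster mix differed here too. The pooled ratios were then 7.59 for Afp, 8.12 for Ambp, 10.6 for Serpina1e, 5.41 for Cartpt, 3.01 for Shisa2, 7.56 for Gsdma and 1.00 for Ucn3. In male-typed Reg4-high cells, 24 in each library, the ratio was 1.95 for Ambp, 7.62 for Serpina1a, 2.29 for Serpina1b, 2.48 for Serpina1d, 2.30 for Serpina1e and 1.84 for Gsdma. It was 0.575 for Afp, 1.45 for Cartpt, 0.878 for Shisa2 and 0.359 for Ucn3. Male-typed Tac1-high cells, 138 WT and 12 labelled NFKO, gave ratios of 365 for Afp, 9.48 for Ambp and 2.33 for Shisa2, against 26.9, 1.80 and 1.04 in the whole cluster. In the whole cluster labelled NFKO 3 cells held 77.0% of the Afp UMIs. Ratios from 12 cells can thus rest on very few of them, and nothing is read from their size. The direction of these members in Reg4-high cells was therefore that of the whole cluster, except for Cartpt.

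**Figure D3:**
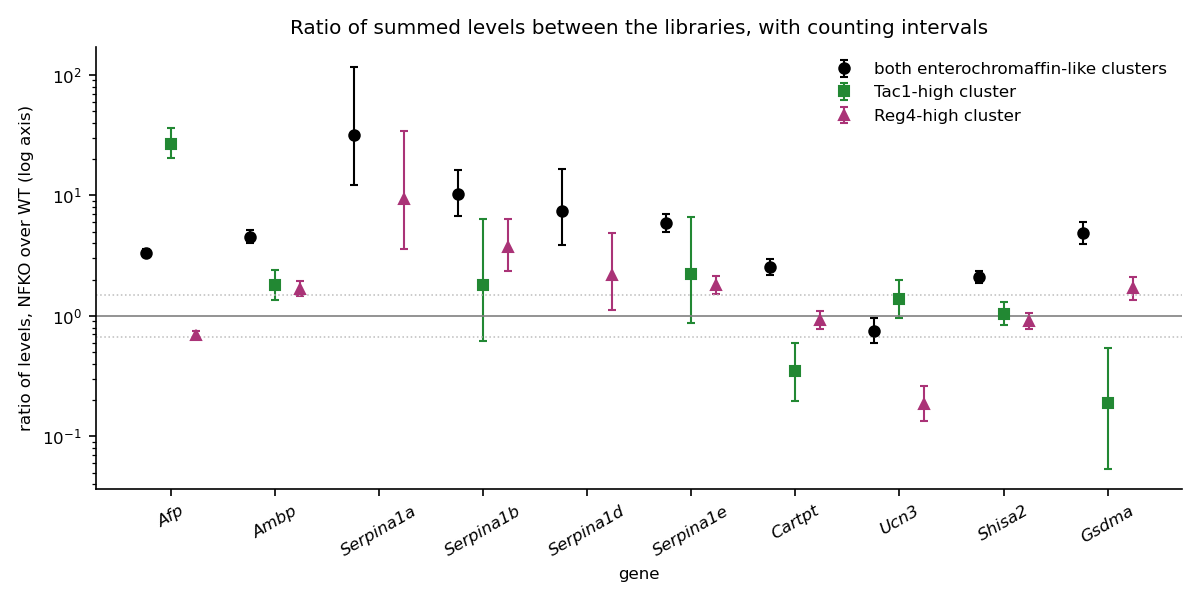
Ratio of summed levels, NFKO over WT, on a log axis for each member in both enterochromaffin-like clusters together (circles), in the Tac1-high cluster (squares) and in the Reg4-high cluster (triangles), with 95% counting intervals; the solid line is a ratio of 1 and the dotted lines are 1.5-fold. Circles lie above the 1.5-fold line for all members but Ucn3, and the triangles lie nearer to 1 than the circles for every member but Ucn3.

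Detection of the members together with Tph1 was compared over all enteroendocrine-like cells, each thinned to 5000 UMIs so that depth was equal. Tph1 was detected in 190 of 845 such WT cells and 535 of 1816 cells of the library labelled NFKO. In WT 5 members were detected more often with Tph1 than without it and 2 less often, against 6.17% and 4.39% of genes. Cells labelled NFKO had 8 members detected more often and 0 less often, against 15.7% and 7.00%. A share was counted as different when the 2 intervals did not overlap. Because Tph1 marks the cells for which the members were chosen, the direction is in part given by that choice.

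Afp was detected in 10.5% of WT cells with Tph1 and 0.153% without it, and in 17.2% and 0.546% in the library labelled NFKO. Cartpt had 7.37% and 0% in WT, from 14 positive cells, and 17.6% and 0.312% in the library labelled NFKO. Gsdma had 16.8% and 1.07%, and 43.0% and 5.85%. Most cells positive for these 3 genes had Tph1: of Afp-positive cells 95.2% in WT and 92.9% in cells labelled NFKO had it, of Cartpt-positive cells 100% and 95.9%, and of Gsdma-positive cells 82.1% and 75.4%, against 22.5% and 29.5% of all cells.

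Ambp and Shisa2 were shared more widely. Ambp was detected in 21.6% of WT cells with Tph1 and 9.16% without, and in 43.9% and 16.2% in the library labelled NFKO, and 40.6% and 53.0% of its positive cells had Tph1. Shisa2 was detected in 49.2% and 8.90% of cells in the library labelled NFKO, and 43.2% and 69.8% of its positive cells had Tph1. Serpina1e had 42.8% and 17.1% and Ucn3 7.85% and 3.83% in the library labelled NFKO. Serpina1b was detected in 4.21% of WT cells with Tph1 and 17.4% without, and Serpina1d in 1.05% and 7.02%, so that in WT these paralogs lay mostly in cells without Tph1. In the library labelled NFKO their shares, 29.2% and 24.1% for Serpina1b and 14.2% and 10.2% for Serpina1d, had overlapping intervals. The share of Serpina1a there was 20.7% with Tph1 and 13.6% without, but its summed level was lower in enterochromaffin-like cells (54.2 CPM) than in the other enteroendocrine-like cells (88.8 CPM), so no order is read.

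Among cells that had Tph1, no member was detected more often where Tac1 was also present (0 in each library), against 0.893% of genes in WT and 4.07% in cells labelled NFKO. Less often detected were 2 members in WT, against 0.590% of genes, and 5 in the library labelled NFKO, against 1.71%. In WT, where 174 cells had Tac1 and 16 did not, these were Serpina1e (9.77% against 56.3%) and Serpina1b (2.30% against 25%, from 8 positive cells). In the library labelled NFKO, with 390 and 145 cells, they were Ambp (37.9% against 60%), Serpina1b (23.1% against 45.5%), Serpina1d (10.3% against 24.8%), Serpina1e (37.4% against 57.2%) and Gsdma (38.2% against 55.9%). Cells with Tph1 were not all enterochromaffin-like, since 32 of 68 Cck-led and 17 of 70 Nts-led cells of that library had it. Tac1 was detected in 2 of these 68 and 6 of these 70 cells. The shares are thus not those of enterochromaffin-like cells alone. When only male-typed cells were used the count in the library labelled NFKO was 0, and without thinning it was 2 less and 2 more often. The male-typed cells were only 27 with Tac1 and 16 without it, so their intervals are wide. The summed levels ran in different directions: cells with both Tph1 and Tac1 had 1183 CPM of Afp and those with Tph1 alone 515 CPM in the library labelled NFKO, whereas Ambp had 369 and 929 CPM, Serpina1e 327 and 503 CPM, and Cartpt 118 and 293 CPM. Shisa2 (275 and 166 CPM) and Ucn3 (37.6 and 9.99 CPM) were ordered as Afp was. For Ucn3, 1 Tac1-high cell of that library held 55 of its cluster's 105 UMIs.

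**Figure D4:**
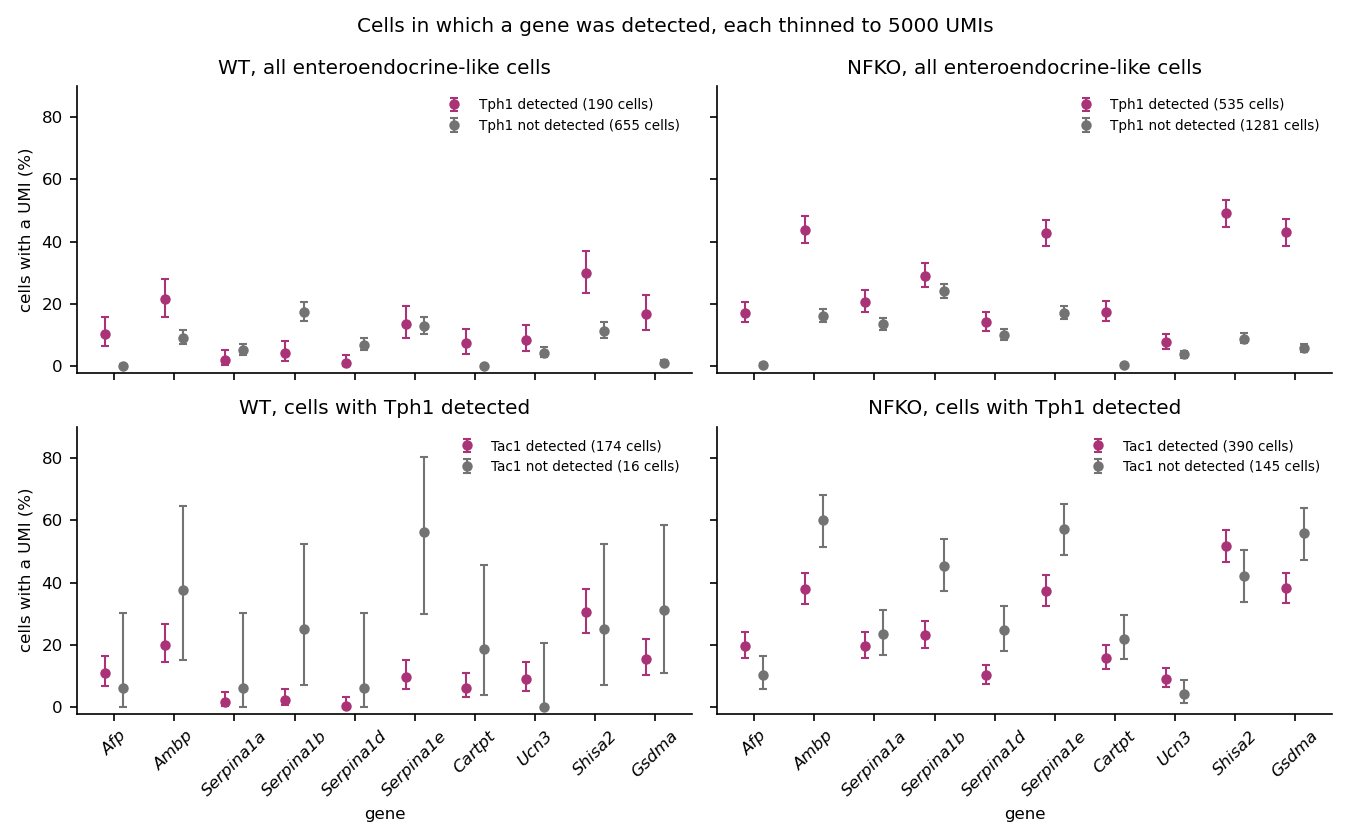
Share of cells (%) in which each member had a UMI after thinning to 5000 UMIs, with 95% exact binomial intervals, in cells with Tph1 (top) or, among these, Tac1 (bottom) detected (purple) or not detected (grey), for the WT and NFKO libraries. In the upper right plot the purple points lie clear above the grey ones for Afp, Ambp, Serpina1e, Cartpt, Shisa2 and Gsdma, and in the lower right plot the purple points lie below the grey ones for Ambp, Serpina1b, Serpina1d, Serpina1e and Gsdma.

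Single Reg4-high cells carried several members at once. At 5000 UMIs, 15 of 28 WT cells (53.6%) and 157 of 228 cells of the library labelled NFKO (68.9%) had at least 5 of the 10 members, with a median of 5 in both and at most 8. Among Tac1-high cells 0 of 162 and 2 of 239 (0.837%) had as many. In Cck-led cells of the library labelled NFKO 14 of 68 did (20.6%). Within Reg4-high cells the members did not all go together. Over the 228 cells of the library labelled NFKO, Spearman's rho of thinned counts was 0.57 between Afp and Reg4, -0.27 between Afp and Serpina1e and -0.23 between Afp and Gsdma. It was 0.48 between Ambp and Cartpt, with Ambp in 78 of the 87 Cartpt-positive cells, and 0.50 between Serpina1e and Serpina1c. Against Tac1, rho was -0.32 for Ambp, -0.26 for Serpina1e and -0.29 for Cartpt. In the 28 WT cells rho was 0.69 between Afp and Reg4, 0.59 between Cartpt and Reg4, and 0.58 between Serpina1e and Serpina1c. Among the 239 Tac1-high cells of the library labelled NFKO, 22 of the 25 Afp-positive cells also had Reg4 (rho 0.58). These values are descriptions over cells of 1 library each, which share their capture and were brought to 1 depth.

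The Serpina1 paralogs were used in different proportions by different endocrine cells, as far as their counts can be told apart. In Reg4-high cells Serpina1c made 47.5% and 53.9% of all Serpina1 UMIs (343 in WT and 7185 in cells labelled NFKO) and Serpina1e 43.4% and 31.5%, with Serpina1b at 5.25% and 7.95%, Serpina1d at 2.62% and 2.31% and Serpina1a at 1.17% and 4.34%. In Sst-led cells Serpina1a made 37.9% and 45.8% and Serpina1b 61.1% and 40.7% (95 and 2373 UMIs). In Neurog3-Ghrl-led cells Serpina1c made 50.8% and 49.3%. Nts-led cells of the library labelled NFKO had 52.1% Serpina1e, of 913 UMIs. In goblet-like cells Serpina1b made 98.2% and 91.9% (840 and 2894 UMIs). Serpina1c, which is not among the 10, was 8.74 times higher in the library labelled NFKO in enterochromaffin-like cells and 2.82 times in Reg4-high cells, as were its 4 paralogs to other degrees. Serpina1b thus led in goblet-like cells of both libraries and in WT Sst-led cells, and Serpina1a in Sst-led cells labelled NFKO. Serpina1b also led in Paneth-like (82.8% and 67.7%) and enterocyte-like cells (92.9% and 48.0%) of both libraries and in WT Cck-led cells (60.6%).

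**Figure D5:**
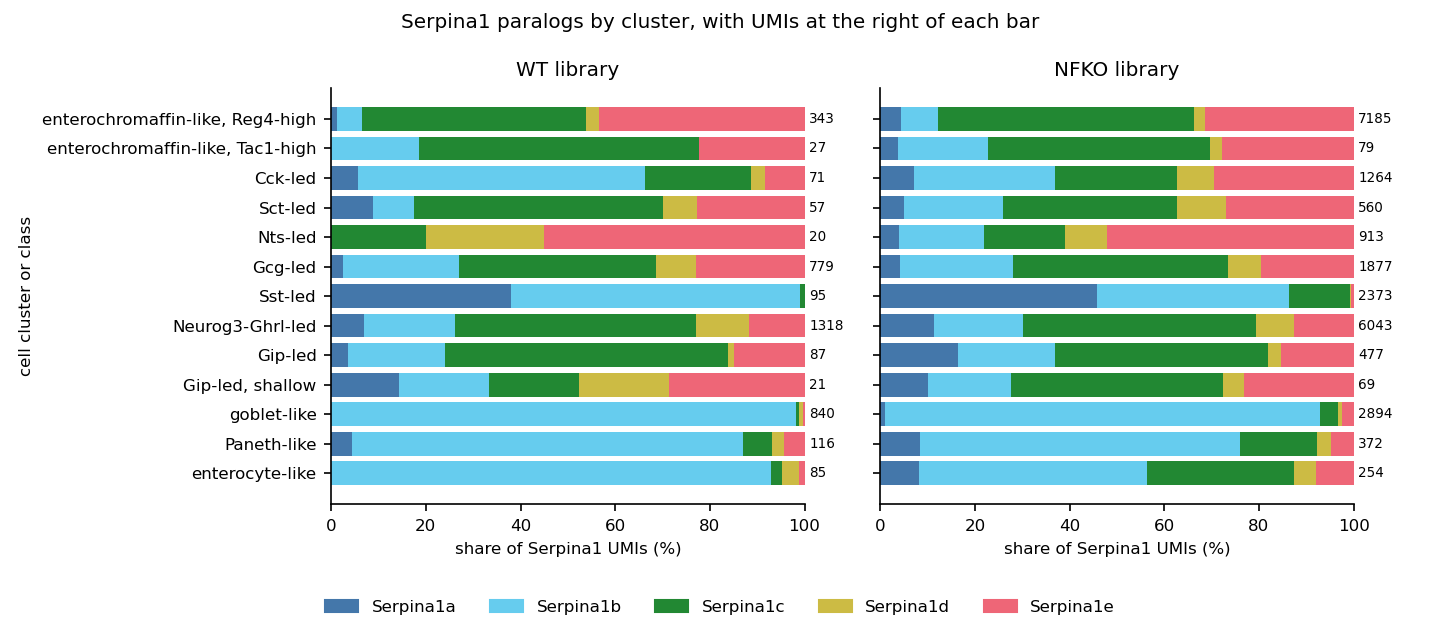
Share of Serpina1 UMIs (%, horizontal axis) that each of 5 paralogs took in each cell cluster or class (vertical axis) of the WT and NFKO libraries, with the number of UMIs at the right of each bar. Serpina1c and Serpina1e fill most of the Reg4-high bars, Serpina1a and Serpina1b the Sst-led bars, and Serpina1b the goblet-like bars.

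Other genes for plasma proteins of liver were few in these cells. Of 26 listed genes 8 had enough UMIs in enterochromaffin-like cells, of which 5 were higher in the library labelled NFKO and 1 lower, against 8.92% and 4.56% of all genes, with a median log2 ratio of 1.05. The higher ones, named because they met the rule, were Alb, for albumin, at 6.08, F2, for prothrombin, at 4.14, Hpx, for hemopexin, at 2.80, Trf, for transferrin, at 2.60 and Serpinf2, for the inhibitor of plasmin, at 1.64. Rbp4, for the plasma carrier of retinol, was lower at 0.604. These ratios are pooled over both clusters and carry their difference in mixture. In Tac1-high cells alone 1 of 7 counted was higher and 1 lower, against 5.21% and 5.00% of all genes. In Reg4-high cells alone 4 of 6 were higher and 0 lower, against 5.58% and 3.45%. Between Reg4-high and Tac1-high cells of the library labelled NFKO (18.3% of all genes higher, 22.4% lower) 5 of 7 were higher (Ttr 1.74, Trf 8.21, Hpx 76.8, Serpinf2 2.40 and F2 6.39) and Alb was lower at 0.211, whereas in WT (9.75% and 12.5%) 1 of 3 was higher (Serpinf2, 2.24) and 2 lower (Ttr at 0.629 and Rbp4).

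Of 14 transcription factors of liver and gut, 0 were higher in enterochromaffin-like cells of the library labelled NFKO, against 8.92% of all genes, with a median log2 ratio of 0.07, and Cebpa at 0.619 and Nr5a2 at 0.333 were among those that were lower. Between Reg4-high and Tac1-high cells, Hnf4a (1.57 in WT and 1.90 in cells labelled NFKO), Foxa1 (2.03 and 2.70) and Zbtb20 (2.43 and 3.32), a repressor of Afp in adult liver, were higher in both libraries, and Foxa2 and Gata4 lower in both. Genes for the making and handling of serotonin did not meet the rule between the libraries in either direction over both clusters together (0 of 8 tested). In Tac1-high cells alone 1 of 8 was higher and 1 lower, against 5.21% and 5.00% of all genes. In Reg4-high cells alone 1 of 7 was higher and 0 lower, against 5.58% and 3.45%. Of 11 genes for processing of peptide hormones 3 were higher in the library labelled NFKO (Pcsk1n at 3.06, Scg5 at 2.19 and Scg3 at 1.77) and 0 lower, against 8.92% and 4.56% of all genes. In Tac1-high cells alone 1 of 10 was higher and 2 lower, against 5.21% and 5.00%. In Reg4-high cells alone 2 of 10 were higher and 0 lower, against 5.58% and 3.45%. Of the same list, 5 in WT and 7 in cells labelled NFKO were higher in Reg4-high than in Tac1-high cells, against 9.75% and 18.3%. None of the 6 other genes of the corticotropin-releasing factor family and its receptors, to which Ucn3 belongs, had enough UMIs in enterochromaffin-like cells. Of the other gasdermins 2 of 8 were counted, and Gsdme was higher at 2.36. Of the other Shisa genes 3 of 7 were counted, and Shisa9 was higher at 4.52. Both ratios are pooled over both clusters, where 8.92% of all genes were higher. In Reg4-high cells alone 1 of 2 gasdermins and 0 of 2 Shisa genes counted were higher, against 5.58%. In Tac1-high cells alone 0 of 2 were higher in either list, against 5.21%.

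The genes whose levels ran most like those of the members were sought over 19 pairs of endocrine cluster and library, by Pearson's r of log2(CPM + 10) among 11660 genes. The pairs share libraries and clusters, and the values are descriptions. Outside the enterochromaffin-like clusters Cartpt reached at most 1.13 CPM, and Afp at most 28.0 CPM, in shallow Gip-led cells labelled NFKO. The values of r for Afp and Cartpt thus rest mostly on the enterochromaffin-like pairs. For Afp they were Fmo2 (0.990), Gabra2 (0.948) and 1810006J02Rik (0.938), for Cartpt Dlg2 led (0.992) with Chst1 (0.989), for Gsdma Itpk1 (0.946), for Shisa2 Trim15 (0.917), for Ucn3 Pygl (0.911) and for Ambp Clic5 (0.896). The Serpina1 members had lower values: Serpina1e Ccnd3 (0.887), Serpina1d Ndrg1 (0.883), and Serpina1b and Serpina1a both Tfpi (0.849 and 0.820). Among the members themselves r was 0.888 between Afp and Cartpt, 0.887 between Cartpt and Shisa2, 0.825 between Ambp and Gsdma, 0.897 between Serpina1a and Serpina1b, and 0.880 between Serpina1d and Serpina1e.

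Markers of other cells were summed beside these levels. The 10 hepatocyte markers together had 34.7 CPM in WT Reg4-high cells, with 8 of 10 at 0, and 28.8 CPM in those of the library labelled NFKO, with Ahsg, Fga, Fgg, Serpina3k and Cyp2e1 at 0. In Tac1-high cells they had 3.44 and 20.4 CPM. Pancreatic acinar markers had 52.1 and 102 CPM in Reg4-high cells, with 6 and 5 of 7 at 0, immune markers 0 and 2.47 CPM, and mesenchymal markers 0 in both. Goblet markers had 3619 and 7256 CPM in Reg4-high cells and 968 and 3321 CPM in Tac1-high cells, against 53284 and 80978 CPM over all kept cells. Paneth markers had 1948 and 3309 CPM and enterocyte markers 2869 and 2602 CPM in Reg4-high cells. Goblet and Paneth markers were thus higher in the library labelled NFKO along with most members, and their part in the results was not tested.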

How the data were processed

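Sorted intestinal cells were profiled with the 10x Genomics 3′ assay in 2 libraries, WT and NFKO. The deposited values are raw UMI counts per gene and barcode, which the authors made with Cell Ranger 5.0.1 on mm10, per the submitters' processing notes; the annotation release is not given in the sources used here. The deposited barcode and feature lists name the columns and rows.

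Of 5051 WT and 7540 NFKO barcodes, 3129 and 5632 passed minima of 500 genes and 1000 UMIs and a mitochondrial limit of 25%. The automatic threshold of Scrublet (scanpy 1.11.5) marked 3 and 0 doublets, so the highest scores at 0.8% per 1000 barcodes, 126 and 340 cells, were removed. Cells of both libraries were clustered in Seurat 5.3.0 under R 4.3.3 (2000 variable genes, 30 principal components, resolution 0.8, 23 clusters) without 21 genes: the 10 members, Serpina1c, Ins1, Ins2, Iapp, Foxo1 and 6 genes of the sex chromosomes. A cluster took a name on 3 or more markers that exceeded the rest 2-fold and appeared in no less than 10% of its cells.

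Counts were summed per cluster and library. Intervals are exact Poisson for levels, exact binomial (Clopper-Pearson) for shares and conditional binomial for ratios (scipy 1.17.1), at 95%. With 1 library per group no test over samples exists and no p-value was computed. For shares, each cell was thinned to 5000 UMIs. A fold against 0 UMIs was set against 3 UMIs. The scripts were tested on simulated data. Positions and transcripts came from GENCODE M21 and paralogs were aligned with Biopython 1.88.

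Named were the 10 members, Serpina1c, Tph1 and Tac1, the 3 genes most like each member, of which the leading ones are given, and up to 4 genes per list by summed level; list genes named because they met the rule were chosen after their values were seen. Members and lists were chosen with earlier results of these data known. Filters, the doublet rate, clustering resolution, seed and genes, sex, thinning, detection minimum, scaling and leaving out the 3 highest cells were varied. The result of 1 listed gene is not reported here.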

Additional observations from a re-analysis of the deposited data

Results flagged for a closer look

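Ambp and Gsdma met the 1.5-fold rule in opposite directions in different endocrine clusters when the library labelled NFKO was compared with WT. Ambp was higher in Reg4-high (1.67), Tac1-high (1.80), Neurog3-Ghrl-led (2.51), shallow Gip-led (2.75), Gip-led (3.51) and Sst-led cells (21.8), and lower in Gcg-led (0.650) and Sct-led cells (0.540). The Sst-led ratio rests on 3 WT UMIs (7.40 to 106). Gsdma was higher in Reg4-high (1.69), Cck-led (2.40), Nts-led (3.96) and Gip-led cells (9.03), and in Neurog3-Ghrl-led cells (29 UMIs against 0, at least 3.77-fold), and lower in Tac1-high cells (0.188). The Gip-led ratio rests on 27 UMIs against 1 (1.49 to 370) and the Nts-led ratio on 186 against 5. The Tac1-high ratio rests on 5 against 16, and without the 3 highest cells too few UMIs were left for a call. With 1 library per group the difference between clusters was not tested, and no sample could be compared with others of its group.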

How the results depend on the processing

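Of 108 settings of the main results 95 gave a like value and 13 did not, and of the settings of single genes 169 gave a like value and 64 another value, while in 8 a value that had met the 1.5-fold rule changed direction. The pooled median log2 ratio of 2.23 became 2.97 in male-typed cells, 2.61 without the 3 highest cells, and, under alternatives chosen after seeing the data, 0.81 with the WT cluster mix, 0.65 in Tac1-high cells (2 members higher, 2 lower) and 0.75 in Reg4-high cells (1 lower). Opposite to the pooled direction were Cartpt (0.804) and Shisa2 (0.961) with the WT mix, Cartpt (0.346) and Gsdma (0.188) in Tac1-high cells, and Afp (0.694), Cartpt (0.917) and Shisa2 (0.909) in Reg4-high cells. Without the 3 highest cells Cartpt in Tac1-high cells turned to 1.79. With the doublet rate doubled, the pooled Afp ratio of 3.32 became 2.59. Enterochromaffin-like cells labelled NFKO then went from 522 to 513, and their Afp UMIs from 6959 to 5437. Members detected less often with Tac1 were 1 in WT and 0 in cells labelled NFKO among male-typed cells, 6 in WT with at least 3 UMIs required, and 2 in the library labelled NFKO without thinning, where 2 were detected more often. The male-typed cells with Tph1 labelled NFKO were 27 with Tac1 and 16 without it. For the cluster mix and the single clusters the alternative's own construction, a fixed or single cluster, gives the change, and for the others the cause was not tested. Male-typed cells of the libraries also differed in cluster mix, and leaving out 3 cells took unequal parts of the libraries. Reg4-high results rest on 32 WT cells and 287939 UMIs, which limits Serpina1a, Serpina1b and Serpina1d most. No paired analysis was possible because each group has 1 library.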
